A study of Mus musculus with 4 samples.

Results

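Transcripts of 9 transient receptor potential (TRP) channel genes were measured in pancreatic islets of Tspan7 knockout and wild-type mice. The genes were taken by symbol from the deposited count table: Trpm2, Trpm3, Trpm4, Trpm5, Trpm7, Trpc1, Trpv1, Trpv2 and Trpa1. They are 9 of the 52636 genes in the table, and 8 of them are among the 16924 genes that passed the filter on low counts and were tested. The member that did not pass was Trpv1, which had 0 counts in every library.

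The study has 2 libraries from mice labelled TSPAN7 KO (Tspan7 y/-, a male carrying no working copy of the X-linked gene) and 2 libraries from wild-type (WT) mice. Tspan7 encodes tetraspanin-7, a membrane protein of hormone-secreting islet cells. Per the labels' protocols, islets, the small endocrine organs scattered through the pancreas, were isolated and their total RNA was extracted. The sources used here do not give the strain, the age of the mice, the cells in which the gene was deleted or the number of animals behind each library. The sample labels say knockout while the series text says knockdown, and the groups follow the sample labels. Whole islets mix beta, alpha, delta and other cells, so a lower count may come from fewer cells of a type or from less RNA per cell, which cannot be told apart.

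TRP channels are cation channels of the cell membrane, each built from a tetramer of subunits with a shared pore region. They open to chemical ligands, internal calcium, temperature or the state of calcium stores, and let sodium or calcium into the cell. In the beta cell such background inward currents depolarise the membrane and help voltage-gated calcium channels to open, which triggers insulin release. The comparison asks whether the loss of Tspan7, studied here for its effect on the calcium sensitivity of exocytosis, goes with altered transcript levels of these channels.

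The 3 channels with the highest level per length, Trpm5, Trpm7 and Trpc1, differ in the DNA before their start sites, and these stretches are shown for that contrast. Each is the 250 bases upstream of the RefSeq start on GRCm38.p6, written 5′ to 3′ on the gene's strand, with every CG dinucleotide in capitals. The Trpm5 stretch lies at chr7:143094643-143094892, the Trpm7 stretch at chr2:126876262-126876511 and the Trpc1 stretch at chr9:95750349-95750598, all on the minus strand.
Trpm5: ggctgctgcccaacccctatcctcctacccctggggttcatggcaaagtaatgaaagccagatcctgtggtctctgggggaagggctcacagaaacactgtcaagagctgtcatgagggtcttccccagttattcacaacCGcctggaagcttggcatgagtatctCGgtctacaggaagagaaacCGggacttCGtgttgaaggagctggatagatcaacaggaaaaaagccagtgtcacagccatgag
Trpm7: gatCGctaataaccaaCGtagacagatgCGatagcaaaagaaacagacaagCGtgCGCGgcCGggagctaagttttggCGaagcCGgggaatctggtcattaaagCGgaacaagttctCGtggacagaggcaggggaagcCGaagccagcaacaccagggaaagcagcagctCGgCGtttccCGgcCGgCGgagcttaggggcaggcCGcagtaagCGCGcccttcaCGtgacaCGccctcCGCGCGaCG
Trpc1: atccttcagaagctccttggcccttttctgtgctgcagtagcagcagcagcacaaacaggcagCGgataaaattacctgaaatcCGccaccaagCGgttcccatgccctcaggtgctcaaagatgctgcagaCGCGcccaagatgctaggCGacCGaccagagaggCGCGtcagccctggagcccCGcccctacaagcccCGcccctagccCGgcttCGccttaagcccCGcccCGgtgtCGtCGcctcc

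The Trpm5 stretch held 4 CG dinucleotides, against 26 in that of Trpm7 and 17 in that of Trpc1. CG reads the same on both strands, so each was counted once. Across all 32851 RefSeq windows of this length the median was 6, and 92.1% held at least 1. At least as many CG as in Trpm7 were found in 9.59% of windows, at least as many as in Trpc1 in 23.5% and at least as many as in Trpm5 in 62.2%. Of the 9 channels, 7 had an entry in the promoter table, with none for Trpm4 and Trpa1. The single Trpm2 window held 10 CG and the single Trpv1 window 2. Trpm3 has 2 annotated starts, with 17 and 9 CG, and Trpv2 has 3, with 2, 2 and 5.

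Trpm3 carries a microRNA gene, Mir204, in an intron, and its relative Trpm1 carries Mir211. In the GENCODE M21 annotation each hairpin lay on its host's strand and inside an intron of every host transcript that spans it, 18 for Trpm3 and 12 for Trpm1. The mature 5p sequences are shown because they share a seed, which stands in capitals (bases 2 to 8). They lie at chr19:22750610-22750631 for Mir204 and chr7:64205831-64205852 for Mir211 on the plus strand of GRCm38.p6.
mmu-miR-204-5p: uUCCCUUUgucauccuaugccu
mmu-miR-211-5p: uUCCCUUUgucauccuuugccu

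Of 22 positions 21 were the same, and the substitution from miR-204 to miR-211, counted from the 5′ end, was A17U. The rows for both hairpin genes stood at 0 counts in all 4 libraries. Counts per gene do not measure mature microRNAs of 22 bases, so these values say nothing about the levels of miR-204 and miR-211. The host Trpm3 gave 359 to 431 counts per library and the host Trpm1 gave 4 to 21.

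Library totals ranged from 7855665 to 9377220 counts. A floor of 3 counts corresponded to 0.312 and 0.398 counts per 1000000 scaled library counts (CPM) in KO libraries and 0.355 and 0.319 CPM in WT libraries. Tspan7 itself gave 3 and 2 counts in KO libraries, against 1924 and 1795 in WT libraries, so the targeted gene matched the labels in all 4. It was the only gene called among 16924 by edgeR's quasi-likelihood test (log2 fold change -9.42 ± 0.25 SE, adjusted p = 3.51e-06). Markers of the labelled tissue were present, with 8 beta-cell genes summing to 14173 and 19364 CPM in KO libraries and to 17734 and 15459 CPM in WT libraries. Markers of acinar cells, the enzyme-secreting cells around the islets, varied widely between libraries, 7 of them summing to 1044 and 4798 CPM in KO libraries and to 2312 and 54.2 CPM in WT libraries.

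No TRP channel passed edgeR's quasi-likelihood test, in which all 8 tested members had a Benjamini-Hochberg adjusted p of 0.9997. Over all genes 0.00591% were called. At an unadjusted p under 0.05 the count was 0 of 8 members, beside 3.51% of all tested genes, and neither DESeq2 nor limma-voom called any member. Log2 fold changes of KO against WT were positive for 6 members and negative for 2, beside 8567 positive among all 16924 tested genes. They ran from -0.39 to 0.34 and had a median of 0.17, beside a median of 0.0034 over all tested genes. The signs depended on single libraries, with 4 positive and 4 negative without KO replicate 1, and likewise without WT replicate 2. In 2 members both KO libraries lay above both WT libraries (Trpc1 and Trpm2) and in 1 both lay below (Trpv2). Over all tested genes 30.3% were separated in this way, 15.3% above and 15% below, so 3 of 8 is near the background. With 2 libraries against 2 an exact permutation test of a single gene cannot give a two-sided p below 0.333.

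**Figure D1:**
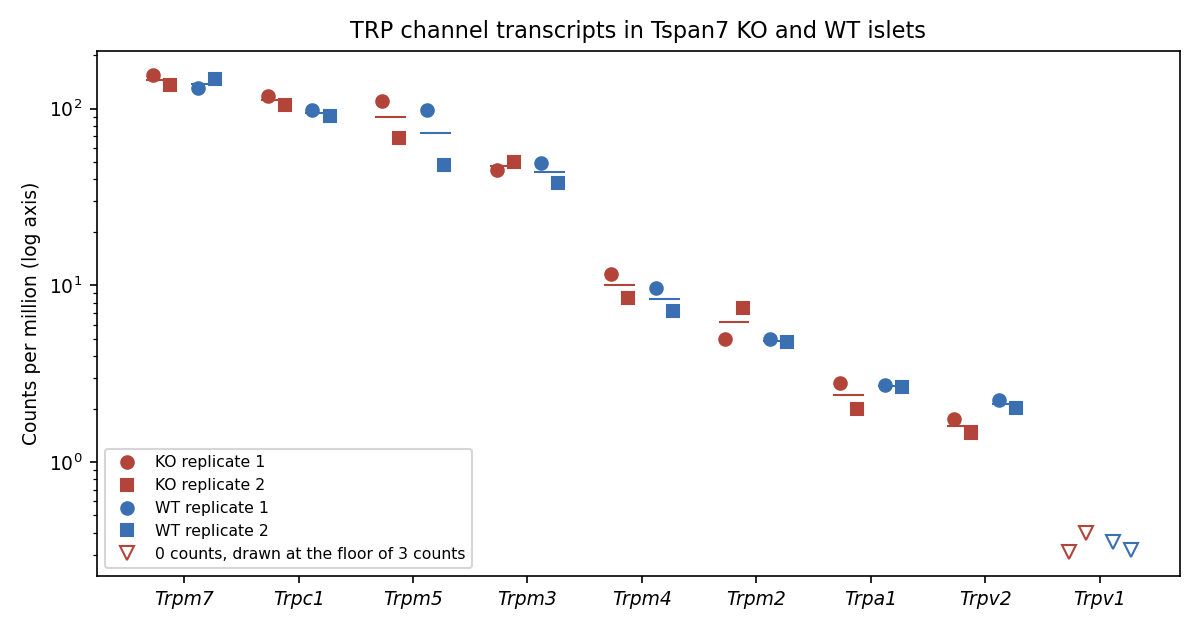
CPM (log axis) of the 9 TRP channel genes in each library, with KO libraries in red on the left and WT libraries in blue on the right, replicate 1 as circles and replicate 2 as squares, and short lines for group means. Trpm7, Trpc1 and Trpm5 lie highest, Trpv2 and Trpa1 stay near 2 CPM, and Trpv1 had 0 counts (open triangles at the floor of 3 counts).

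Trpm5 and Trpm4 form channels that pass sodium and potassium when internal calcium rises. Trpm5, also known from taste cells, gave 1061 and 515 counts in KO libraries, against 828 and 453 in WT libraries. After scaling these were 110 and 68.3 CPM in KO islets and 98.0 and 48.1 CPM in WT islets. The groups overlapped, and in each of them replicate 1 was well above replicate 2. The log2 fold change was 0.29 ± 0.42 (SE), with a 95% confidence interval (CI) of -0.84 to 1.42, or 0.560-fold to 2.68-fold, the widest of the 8. Its direction depended on the libraries used, at -0.09 without KO replicate 1, -0.13 without WT replicate 2, 0.59 without KO replicate 2 and 0.89 without WT replicate 1. No call was made in any of these fits.

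The spread of Trpm5 between replicates exceeded counting error. Replicate 1 was 1.61 times replicate 2 in KO islets (95% counting interval 1.45 to 1.80, exact binomial) and 2.04 times in WT islets (1.81 to 2.29). Intervals of this kind cover counting error only. Trpm5 was not alone in this, as 3 of 8 channels had an interval without 1 in each group. The others were Trpm7 and Trpc1 in KO islets and Trpm7 and Trpm3 in WT islets. Trpm7 was higher in replicate 1 of KO (1.15 times) and lower in replicate 1 of WT (0.888 times). Genes were counted whose replicates differed in both groups, in the same direction, by at least the smaller Trpm5 difference, that of KO (log2 0.69). There were 198 of them among 16924 tested genes (1.17%), and replicate 1 was the higher in 88 of them. This pattern was chosen after the values were seen. Across all tested genes the replicate differences of KO and WT had a correlation of -0.298. They shared a sign in 6835 of 16924 genes. Summed markers of alpha cells (5 genes) were also higher in replicate 1, at 7632 and 7066 CPM in KO libraries and 8339 and 6385 CPM in WT libraries, as were 3 delta-cell markers, at 1054 and 969 CPM in KO and 1140 and 816 CPM in WT libraries. Beta-cell markers did not follow this order, being lower in replicate 1 of KO and higher in replicate 1 of WT. The part of cell makeup in the Trpm5 values was not tested.

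Trpm4 gave 111 and 64 counts in KO libraries, against 82 and 67 in WT libraries, or 11.5 and 8.48 CPM in KO and 9.70 and 7.12 CPM in WT islets. Here too replicate 1 was above replicate 2 in both groups, 1.36-fold in each, but the counting intervals (0.990 to 1.88 in KO and 0.975 to 1.91 in WT) held 1. KO against WT gave a log2 fold change of 0.26 ± 0.26 (95% CI -0.35 to 0.87). It was 0.02 without KO replicate 1 and 0.05 without WT replicate 2, and stood at 0.46 without KO replicate 2 and 0.50 without WT replicate 1. Per kilobase of exon, Trpm5 was 16.2 and 13.6 times Trpm4 in KO libraries and 17.1 and 11.4 times in WT libraries. This ratio depends on the length used and is smaller with the longest transcript of each gene. By that length the means over all libraries were 19.7 CPM per kilobase for Trpm5 and 2.13 for Trpm4.

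**Figure D2:**
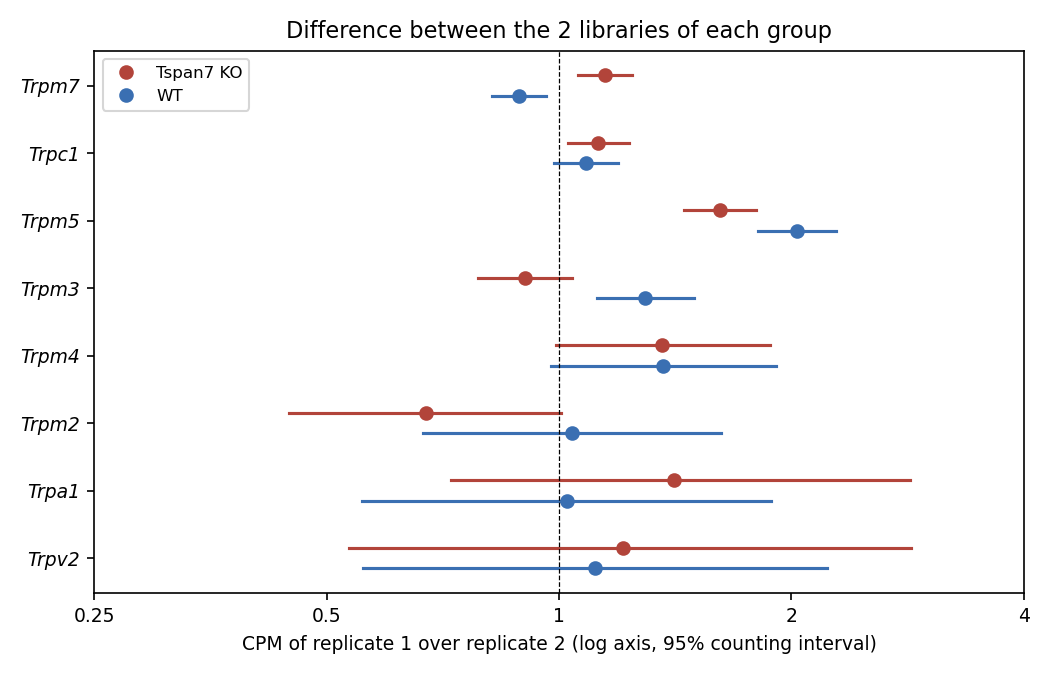
CPM of replicate 1 over replicate 2 within Tspan7 KO (red, upper) and WT islets (blue, lower) for the 8 detected channels, on a log axis with 95% counting intervals (exact binomial). Trpm5 stands at 1.61 in KO and 2.04 in WT, with both intervals above 1, while the intervals of Trpm4, Trpm2, Trpa1 and Trpv2 hold 1 in both groups.

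Trpm7 and Trpm2 are fusions of a channel with an enzyme-like domain. Trpm7, a magnesium-permeable channel with a kinase domain that is expressed in most tissues, had the highest count of the 9. It measured 155 and 136 CPM in KO islets, against 130 and 146 CPM in WT islets, from 1497 and 1023 counts in KO and 1099 and 1378 in WT libraries. The groups overlapped. Its log2 fold change was 0.07 ± 0.14 (95% CI -0.25 to 0.40, or 0.838-fold to 1.32-fold), with values of -0.02 without KO replicate 1 and -0.01 without WT replicate 1.

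Trpm2 is opened by ADP-ribose and calcium, and in mouse beta cells it is known as a target of incretin signalling. It gave 48 and 56 counts in KO libraries, against 42 and 45 in WT libraries. In CPM these were 4.99 and 7.42 in KO and 4.97 and 4.78 in WT islets, so the groups did not overlap, although replicate 1 of KO and replicate 1 of WT nearly coincided. The log2 fold change was 0.34 ± 0.30 (95% CI -0.35 to 1.02), the highest of the 8. It rested on KO replicate 2, at 0.03 without that library and 0.61 without KO replicate 1.

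Trpm3, a channel opened by the neurosteroid pregnenolone sulfate, measured 44.8 and 49.6 CPM in KO islets, against 49.3 and 38.2 CPM in WT islets, from 431 and 374 counts in KO and 417 and 359 in WT libraries. The groups overlapped, with WT replicate 2 lowest. The log2 fold change was 0.11 ± 0.17 (95% CI -0.27 to 0.49), and it was -0.07 without WT replicate 2 and 0.30 without WT replicate 1.

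Trpc1, a subunit linked to calcium entry after store depletion, gave 1136 and 792 counts in KO libraries, against 833 and 856 in WT libraries. After scaling it measured 118 and 105 CPM in KO islets, both above the 98.6 and 91.0 CPM of WT islets. The means were 111 ± 9.19 CPM in KO and 94.8 ± 5.37 CPM in WT islets (SD, n = 2 each). Its log2 fold change was 0.23 ± 0.14 (95% CI -0.08 to 0.55, or 0.944-fold to 1.47-fold), and its unadjusted p by edgeR, 0.127, was the smallest of the 8. With 1 library left out it stayed positive, between 0.15 and 0.32.

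The sensory channels were low or undetected. Trpv1, the capsaicin and heat receptor, had 0 counts in KO and WT libraries alike, which allows up to 0.398 CPM in the shallowest library. Of 7 sensory neuron markers, Scn10a and Mrgprd were also at 0 in all libraries, and the 7 together summed to 4.78 and 4.24 CPM in KO and 4.97 and 4.36 CPM in WT libraries. Trpa1, the receptor for mustard oil and other irritants, gave 27 and 15 counts in KO libraries, against 23 and 25 in WT libraries, or 2.80 and 1.99 CPM in KO and 2.72 and 2.66 CPM in WT islets. The groups overlapped, with KO replicate 2 lowest. The log2 fold change of Trpa1 was -0.15 ± 0.36 (95% CI -0.97 to 0.67), and it was 0.06 without KO replicate 2 and -0.43 without KO replicate 1.

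Trpv2, a calcium-permeable channel also found in macrophages, was the only channel among the 9 described with both KO libraries below both WT libraries. It gave 17 and 11 counts in KO libraries, against 19 and 19 in WT libraries, or 1.77 and 1.46 CPM in KO and 2.25 and 2.02 CPM in WT islets. Trpv2 had a log2 fold change of -0.39 ± 0.39 (95% CI -1.28 to 0.51), and it ran from -0.54 to -0.27 with 1 library left out. The 10 macrophage markers summed to 59.1 and 48.0 CPM in KO libraries and to 85.8 and 74.4 CPM in WT libraries, and in 7 of the 10 both KO libraries lay below both WT libraries, beside 15% of all tested genes. Of these 7, Mrc1 did not pass the filter on low counts, with 6 and 5 counts in KO and 9 and 22 in WT libraries. The order was not limited to macrophages. Both KO libraries also lay below both WT libraries in 4 of 6 endothelial and 3 of 6 stellate and pericyte markers, and above them in 0 of either. In smooth muscle 2 of 3 markers had both KO libraries above both WT libraries. The part of cell makeup in the Trpv2 values was not tested.

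**Figure D3:**
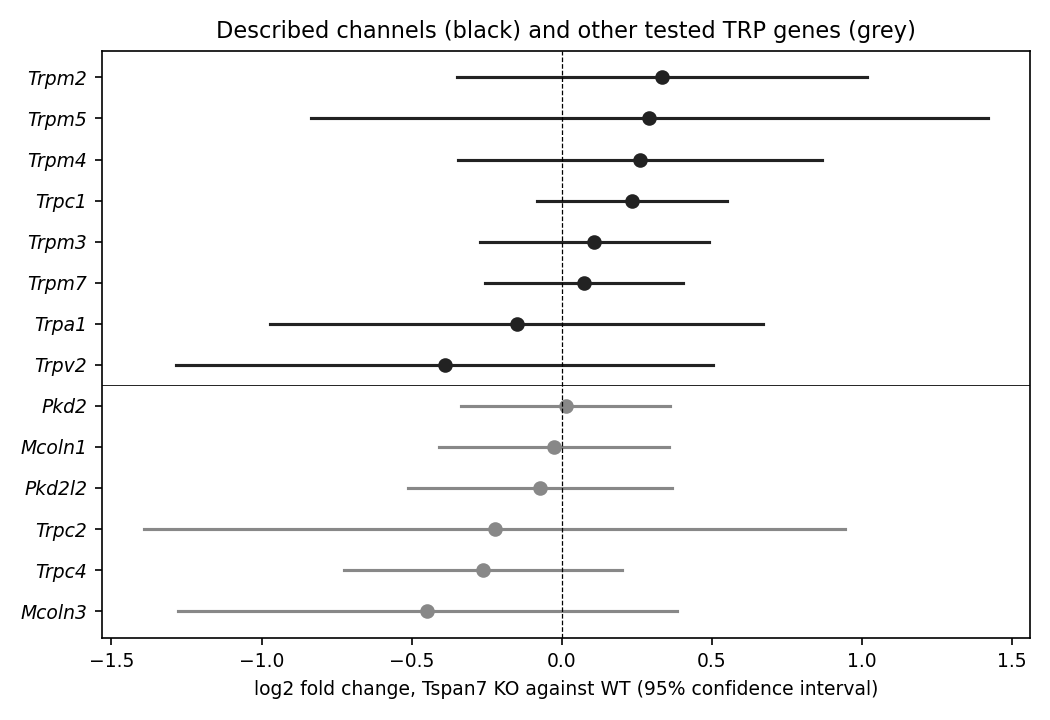
Log2 fold changes of Tspan7 KO against WT islets with 95% confidence intervals for the 8 tested channels (black) and the 6 other TRP genes that passed the filter (grey). Every interval holds 0, that of Trpc1 running from -0.08 to 0.55, that of Trpm5 from -0.84 to 1.42 and that of Trpc2 from -1.39 to 0.95.

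**Figure D4:**
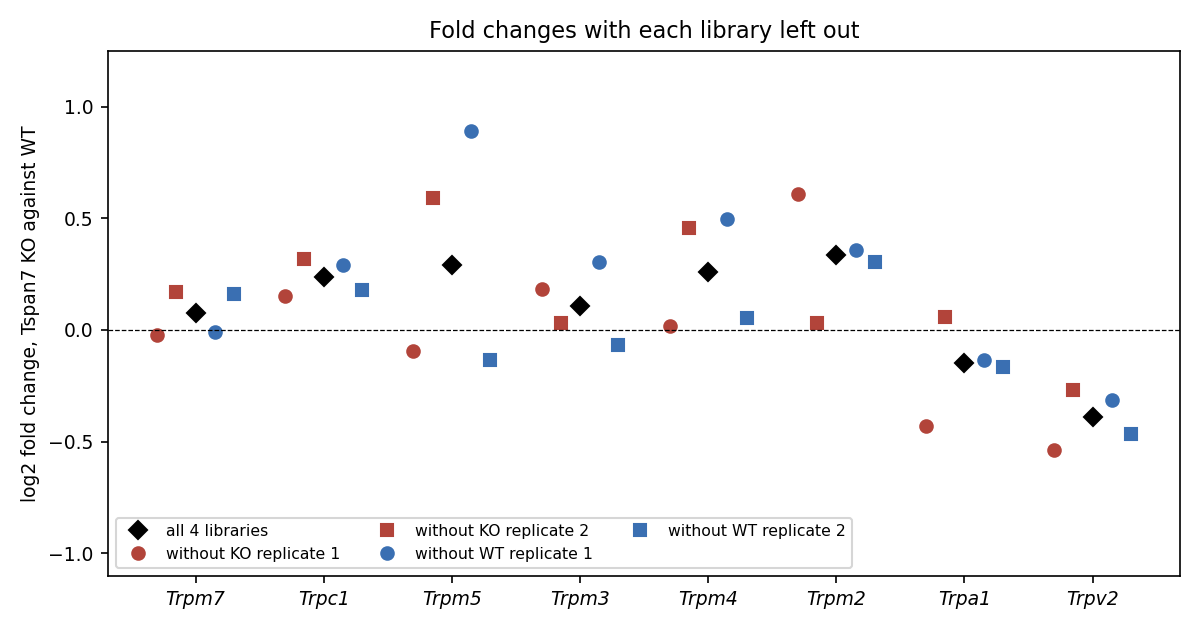
Log2 fold change of each tested channel in KO against WT islets with all 4 libraries (black diamonds) and with each library left out (red for a KO library, blue for a WT library). The values of Trpm5 spread from -0.13 to 0.89, while those of Trpc1 stay between 0.15 and 0.32.

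Levels were compared between genes per kilobase of annotated exon, as means over all 4 libraries (SD, n = 4, both groups pooled). Trpc1 stood at 12.8 ± 1.43, Trpm5 at 12.7 ± 4.40 and Trpm7 at 12.5 ± 1.002 CPM per kilobase. These 3 overlapped in range, so their order is not settled beyond their spread. Trpm3 followed at 1.86 ± 0.219, below Trpm7 by a factor of 6.74 and with no overlap in range. Trpm4 stood at 0.851 ± 0.173, below Trpm3 by a factor of 2.19 and again with no overlap. Trpa1 at 0.596 ± 0.0878, Trpm2 at 0.445 ± 0.101 and Trpv2 at 0.418 ± 0.0757 each overlapped with the neighbour above. Trpv1 was at 0.

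Among all 28 mouse TRP genes in the table, Trpc1, Trpm5 and Trpm7 together made up 63.5% and 58.9% of the summed length-scaled level in KO libraries and 59.8% and 54.2% in WT libraries. Exon length follows GENCODE M21, in which rare transcripts can lengthen a gene. With the longest transcript in place of all exons, 5 of the 9 genes kept their rank, with Trpm7 (20.0) and Trpm5 (19.7 CPM per kilobase) trading places, as did Trpm2 (0.762) and Trpa1 (0.596). Exons of other genes on the opposite strand covered 3.44% of Trpm5 (Tssc4) and 2.57% of Trpm3, and 0.730% of Trpm2 was shared with small genes on its own strand. The other 6 members had no such overlap.

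**Figure D5:**
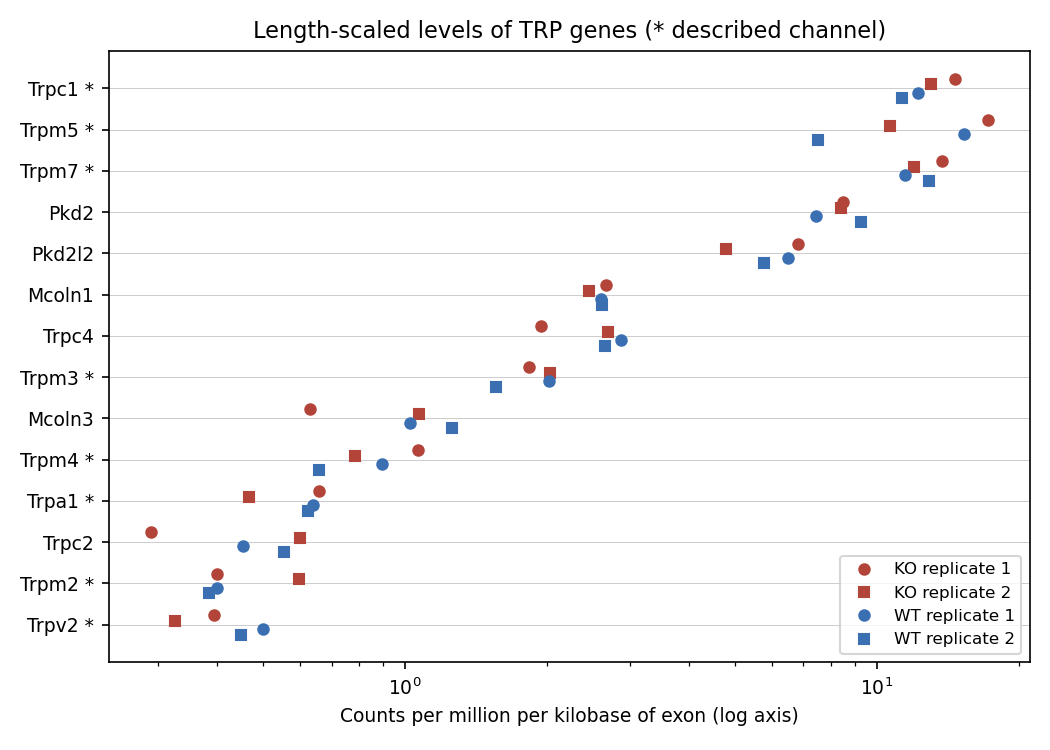
CPM per kilobase of exon (log axis) for the 8 detected channels (asterisk) and the 6 other TRP genes that passed the filter, ordered by their mean, with KO libraries in red above WT libraries in blue. Trpc1, Trpm5 and Trpm7 have means near 13, above the other means, while the range of Trpm5 (7.52 to 17.2) overlaps that of Pkd2 (7.46 to 9.29).

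Of the 19 other TRP superfamily genes 6 passed the filter, and none was called in either direction. Their log2 fold changes were positive in 1 and negative in 5, between -0.45 and 0.01 with their median at -0.15. Pkd2, which encodes polycystin-2, measured 86.3 and 85.6 CPM in KO islets, against 75.8 and 94.5 CPM in WT islets (log2 fold change 0.01 ± 0.15). Its relative Pkd2l2 measured 39.6 and 27.8 CPM in KO and 37.6 and 33.5 CPM in WT islets (-0.07 ± 0.19). The lysosomal channel genes Mcoln1 and Mcoln3 had log2 fold changes of -0.02 ± 0.17 and -0.45 ± 0.36. Trpc4, of the same subfamily as Trpc1, measured 15.6 and 21.6 CPM in KO and 23.1 and 21.4 CPM in WT islets (-0.26 ± 0.20). Per kilobase of exon, Trpc1 was 7.58 and 4.86 times Trpc4 in KO and 4.27 and 4.26 times in WT libraries. The ratio is smaller with the longest transcript as length, by which the means were 22.6 CPM per kilobase for Trpc1 and 5.88 for Trpc4. Trpc2 gave 8 and 13 counts in KO and 11 and 15 in WT libraries (-0.22 ± 0.51), and its exons lie wholly inside those of overlapping genes on the same strand, so its counts are uncertain.

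Among 31 genes known to act with TRP channels 28 were tested and none was called, with 12 log2 fold changes positive and 16 negative. Their median was -0.01 and their range -0.21 to 0.31. The 6 with the smallest p were Gipr, Chrm3, Itpr1, Parp1, Orai3 and Orai1. Gipr, the receptor of the incretin GIP, measured 34.2 and 28.5 CPM in KO islets, against 26.3 and 24.2 CPM in WT islets (log2 fold change 0.31 ± 0.16). Chrm3, the muscarinic receptor that couples to phospholipase C, measured 64.0 and 62.6 CPM in KO and 59.6 and 50.9 CPM in WT islets (0.20 ± 0.14). Itpr1, an inositol trisphosphate receptor of the calcium stores, measured 242 and 163 CPM in KO and 188 and 138 CPM in WT islets (0.31 ± 0.23), with replicate 1 higher in both groups.

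Parp1, an enzyme whose polymers supply ADP-ribose, measured 60.4 and 55.1 CPM in KO islets, against 62.2 and 67.8 CPM in WT islets (log2 fold change -0.17 ± 0.14). Of the store-operated channel genes, Orai3 stood at -0.21 ± 0.18, Orai1 at -0.21 ± 0.28 and Orai2, added after its values were seen, at -0.0086 ± 0.21. The 3 partners that were not tested belong to the taste cascade upstream of Trpm5. The G protein subunit gene Gnat3 gave 0 and 1 counts in KO libraries, against 0 and 0 in WT libraries. Its partner subunit gene Gng13 gave 0 and 1 counts in KO and 2 and 0 in WT libraries. The phospholipase gene Plcb2 gave 4 and 4 counts in KO and 8 and 2 in WT libraries.

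The genes nearest in pattern were sought for the 3 channels with the most counts, by the root mean square difference of log2 CPM centred over the 4 libraries. Genes with a predicted name or no symbol were left out of the search and of its counts. For Trpm5 the nearest were Map3k13 (0.051) and Grhl1 (0.056), and 10 genes lay within 0.1. Grhl1 measured 41.9 and 26.4 CPM in KO islets and 41.2 and 18.7 CPM in WT islets. Its higher replicate 1 follows from the search, which picked genes for their likeness to Trpm5 in these same libraries. For Trpm7 they were Cited2 (0.0086) and Zfp87 (0.0093), and for Trpc1 they were Mbtd1 (0.0106) and the carboxypeptidase M gene Cpm (0.0107). These 2 patterns are shared by many genes, with 1694 within 0.1 of Trpm7 and 900 within 0.1 of Trpc1.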

How the data were processed

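The authors deposited raw counts per Ensembl gene for 4 islet libraries, 2 TSPAN7 KO and 2 WT. Per the submitters' processing notes, the tools were HISAT2 and featureCounts and the genome build GRCm39, without versions. The sources used here do not give the annotation, strand setting or treatment of multi-mapping reads. Symbols and exon lengths came from GENCODE M21 (GRCm38), which matched 52403 of 52636 identifiers, and upstream and microRNA sequences from RefSeq on GRCm38.p6. Because the builds differ, no coordinates were used for the counts.

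Genes were kept by filterByExpr (minimum count 10), scaled by trimmed mean of M-values and compared with edgeR 4.0.16's robust quasi-likelihood F test (R 4.3.3, limma 3.58.1), two-sided, with Benjamini-Hochberg adjustment over all 16924 genes and a threshold of 0.05. CPM values use the scaled library sizes, and SE and 95% CI come from that fit. The pipeline was tested on simulated counts. Alternatives used DESeq2 1.42.0, limma-voom, other scalings, no filter, the replicate block and each library left out. No label says that libraries came from separate animals, so the spread behind each p-value may be technical. Members and lists were chosen with earlier results of these data known. Named were all 9 channels, Tspan7, the tested TRP relatives, the 6 partners of smallest p and 2 genes of nearest pattern for 3 channels, without predicted names.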

Additional observations from a re-analysis of the deposited data

How the results depend on the processing

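None of the TRP channels, other TRP genes or partner genes was called under any alternative run. The smallest adjusted p of a channel was 0.487, for Trpm5 without WT replicate 1 (edgeR's quasi-likelihood test), the only fit in which a channel had an unadjusted p under 0.05. All 56 log2 fold changes of the channels under other scalings, tools, filter and designs kept their direction, and 26 of 32 did with 1 library left out. With 1 library left out, those that changed sign ran from -0.067 to 0.30 for Trpm3, -0.13 to 0.89 for Trpm5, -0.025 to 0.17 for Trpm7 and -0.43 to 0.060 for Trpa1. The same held for Itpr1 (-0.0022 to 0.57), Orai1 (-0.53 to 0.027), Trpc2 (-0.80 to 0.25), Mcoln1 (-0.083 to 0.031), Pkd2 (-0.14 to 0.18) and Pkd2l2 (-0.35 to 0.15). Over all genes the count of calls was 62 with no low-count filter (15 higher, 47 lower), 6 with DESeq2 (0 and 6) and 1 to 48 with 1 library left out (33 higher and 15 lower without WT replicate 1). The cause was not tested. With the longest transcript as length, 5 of 9 channels kept their rank. With the replicate block 6 genes were called (1 higher, 5 lower), none of them a channel. Same-numbered libraries did not pair (correlation of their differences -0.298 across genes), and the crossed pairing, added after seeing the data, called 2 (1 and 1). Trpv1 had 0 counts, and among the tested channels depth limits Trpv2 and Trpa1 most, with 11 to 27 counts per library.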

Other observations

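The 13 other TRP genes that did not pass the filter held between 0 and 41 counts over all 4 libraries. Trpm1, the host of Mir211, gave 9 and 7 counts in KO libraries, against 4 and 21 in WT libraries. Trpc5 gave 15 and 4 counts in KO and 6 and 8 in WT libraries, and Trpc7 gave 3 and 2 in KO and 10 and 5 in WT libraries. Trpm6, a kinase-bearing relative of Trpm7, gave 10 and 5 counts in KO and 11 and 1 in WT libraries. Trpv4 gave 5 and 3 counts in KO and 0 and 7 in WT libraries. Trpm8, the cold and menthol receptor, gave 0 and 0 counts in KO and 1 and 0 in WT libraries, and Pkd2l1 had 0 in all 4. These genes were not tested in the main fit. With no low-count filter, 18 of the 19 other TRP genes entered the fit and none was called. How large a difference such low counts could show was not tested.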
